A study of Homo sapiens with 6 samples.

Results

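The replication-dependent histone genes are the clustered genes for the linker histone H1 and the core histones H2A, H2B, H3 and H4. They were taken by name from a table of 60728 genes, as symbols of the H1, H2A, H2B, H3 and H4 series of clustered genes. Of 66 such symbols, 36 had at least 10 counts summed over the 6 libraries and form the set described here. A further 14 had between 1 and 9 counts, and 16 had none. The members nearest to the limit were H4C4 with 11 counts and H3C13 with 16 counts, and the nearest genes left out were H2BC10 and H3C12 with 9 counts each.

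The libraries came from JJN3, an established human multiple myeloma cell line with the genotype given as WT, grown in medium with serum. There were 3 groups of 2 libraries each: WNK463 for 2 h, WNK463 for 6 h and the vehicle DMSO. WNK463 inhibits the kinases of the WNK family, regulators of ion cotransporters. Its dose reads 5 µM in the samples' protocol but 1 µM in the series' design. The time of the DMSO libraries is given only as control, so time in culture and treatment cannot be told apart. All results are from 1 cell line, and the labels leave unsaid whether replicates were separate cultures, and p-values then reflect just the spread among these libraries, which may be technical.

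Cells in S phase need new histones to package the copied DNA, and these genes supply them. Their mRNAs are unusual in ending, as a rule, in a conserved stem-loop and not in a poly(A) tail. The stem-loop is bound by SLBP, and the U7 snRNP directs the cut that forms the end. NPAT activates transcription of the genes, and the mRNAs are degraded when DNA synthesis stops. The genes lie in clusters on a few chromosomes, many of them as H2A and H2B pairs transcribed away from each other.

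The stem-loop is shown because it is the sequence that sets these mRNAs apart, and because some of the members described here have annotated exons that run on beyond it. It was searched for as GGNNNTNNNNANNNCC with 6-base arms that are reverse complements of each other, on the sense strand, within 100 bases after the stop codon of GENCODE 29 transcripts. Among 20 members with at least 100 transcript bases after the stop codon, 18 held a match, which is 90%. Among 18727 other protein-coding genes the share was 0.117%. H2BC11 and H2AC11 had no match in the window. Among members whose transcripts end sooner, H2AC13, H2BC13 and H4C11 held a match before the end. In the others, such as H2BC12 and H1-2, none was found, and the annotation does not cover the full window. The sites of 7 members with high counts are printed with the 16 bases of the stem-loop in capitals.
H2BC21: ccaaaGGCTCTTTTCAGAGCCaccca
H2BC15: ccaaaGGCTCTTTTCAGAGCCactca
H2BC5: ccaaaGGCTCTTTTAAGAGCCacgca
H2AC6: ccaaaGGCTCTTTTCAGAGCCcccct
H3C10: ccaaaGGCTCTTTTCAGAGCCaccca
H4C8: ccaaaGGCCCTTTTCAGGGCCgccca
H4C9: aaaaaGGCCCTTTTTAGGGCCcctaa
The same 16 bases were found in H2BC21, H2BC15, H2AC6, H3C10 and other members, 11 in all, while those of H4C8 were found in 4 H4 members in all. These totals take in H2AC13, H2BC13 and H4C11, whose transcripts end within the window. In H2BC21 the stem-loop lies at chr1:149886188-149886203 on the minus strand, and 1729 exonic bases of the counted gene model lie beyond it. That stretch was 4131 bases in H2BC15, 1655 bases in H4C8, 1128 bases in H2AC6, 769 bases in H3C10, 414 bases in H2BC5 and 212 bases in H4C9. A count for these genes can thus include fragments from either side of the stem-loop, and the table does not separate them.

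Counts assigned to genes totalled between 18013790 and 24002291 per library, so that 3 counts were worth 0.125 to 0.167 CPM, a unit that scales counts to library size. The members' summed counts were 2179 and 2545 for DMSO, 3053 and 4093 for 2 h, and 4500 and 4693 for 6 h. Marker genes of plasma cells were present in all libraries, with a summed level of 1809 to 1920 CPM over 10 genes. Markers of T cells, myeloid cells and epithelium summed to 99.3 and 98.6 CPM in DMSO, 119 and 125 CPM at 2 h, and 111 and 117 CPM at 6 h, without overlap between DMSO and either WNK463 group. Nearly all of this came from EPCAM, an epithelial adhesion gene, at 92.1 and 89.96 CPM in DMSO, 107 and 115 CPM at 2 h, and 101 and 107 CPM at 6 h. EPCAM was called higher at 2 h than in DMSO (log2 change 0.29, edgeR adjusted p = 0.00756) but not at 6 h (0.19, adjusted p = 0.0521), and the part of these markers in the results for the histone genes was not tested. CD3D, which marks T cells, had 0 counts in all 6 libraries, and LYZ, which marks myeloid cells, was at 0 in 5 and at 0.219 CPM in the other. Of the 10 markers of these other cell types, 5 had enough counts to be tested, so CD3D and LYZ do not stand for the whole list. The sources used here do not give whether the libraries were selected for poly(A) tails. RMRP and RPPH1, a pair of abundant noncoding RNAs without such tails, had 0 counts in every library. Multi-mapping and multi-gene pairs were left out of the counts, so these 0 counts do not settle the selection. In bulk RNA, fewer cells of a kind and less RNA per cell cannot be told apart.

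After 6 h of WNK463 the 11 most abundant of these histone genes, which included genes of all 5 histone types, had all risen relative to DMSO, and none of the 27 tested members was called lower. The summed level of the 36 members was 235 ± 4.90 CPM at 6 h, against 120.5 ± 0.318 CPM in DMSO (SD, n = 2 each), a ratio of 1.95. The sum at 2 h was 171 ± 5.54 CPM, a ratio of 1.42 to DMSO. The 2 libraries of each group lay close together, and the 3 groups did not overlap in this sum. Here and below, an SD from 2 libraries is only a rough measure of spread, so a small SD does not show high precision. Without H2BC12, the most abundant member, the ratios were 2.03 at 6 h and 1.34 at 2 h.

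In the fit of all genes, 27 of the 36 members passed the filter on low counts and were tested by edgeR's quasi-likelihood test, with calls made where the Benjamini-Hochberg adjusted p was under 0.05. At 6 h, 11 members were called higher than in DMSO and 0 lower, which is 40.7% of those tested, beside 18.0% of the 15548 genes tested called higher and 36.6% called in either direction. At 2 h, 4 members were called higher and 0 lower, or 14.8% of those tested, beside 8.68% of all tested genes called higher and 17.0% called in either direction. Between 6 h and 2 h, 6 members were called higher at 6 h and 0 lower, or 22.2%, beside 11.1% of all genes called higher and 24.3% called in either direction. These 6 were H2BC21, H2BC15, H2AC6, H2AC11, H4C9 and H4C8, and the calls of H2AC11, H4C9 and H4C8 were each lost without the first 2 h or the first 6 h library, with that of H4C9 also lost without the second of either. No member was lower at an unadjusted p under 0.05 in any of these 3 comparisons (a count of 0 in each). The share of all tested genes at that unadjusted threshold was not counted, so this 0 has no background beside it. DESeq2 and limma voom also called 0 members lower. The filter asked for about 0.523 CPM in at least 2 libraries, and 4 of the tested members (H1-4, H4C5, H2BC7 and H2BC17) reached that level in no DMSO library.

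Counted without a model, over all 36 members, both 6 h libraries lay above both DMSO libraries in 21 members and below them in 0. That is 58.3% of the members, beside 28.9% of the 20946 genes with at least 10 counts lying above and 29.0% below. The mean was higher at 6 h than in DMSO in 30 members, or 83.3%, beside 49.5% of those genes. At 2 h the mean was higher than in DMSO in 29 members, or 80.6%, beside 49.1%, and at 6 h it was higher than at 2 h in 26 members, or 72.2%, beside 51.6%. At 2 h, both libraries lay above both DMSO libraries in 13 members and below them in 3, that is 36.1% above, beside 23.7% above and 25.3% below among all such genes. The 3 that lay below were H2BC4, H2BC8 and H2BC13, all of them H2B genes at under 2.1 CPM in DMSO. Of the 36, 4 members (H2BC17, H3C7, H3C13 and H4C4) had 3 counts or fewer over both DMSO libraries and met the limit of 10 counts through the WNK463 libraries, so they could hardly lie below DMSO. Among the other 32, the numbers over DMSO were 19 above and 0 below at 6 h, and 12 above and 3 below at 2 h. In these 32 the mean was higher than in DMSO in 27 at 6 h and in 25 at 2 h. Over all 36 members, both 6 h libraries lay above both 2 h libraries in 18 and below them in 4, and H4C4 was among those below. The background for 6 h and 2 h was 28.2% above and 26.4% below.

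**Figure D1:**
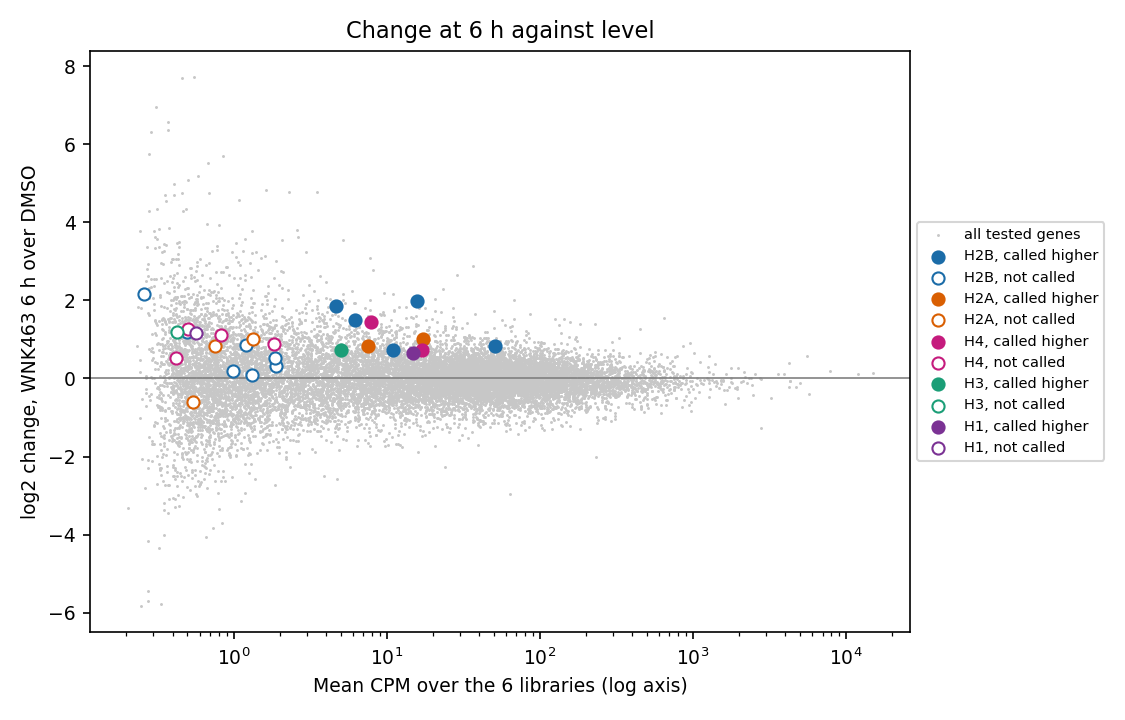
Change at 6 h over DMSO (log2, vertical axis) against the mean CPM over the 6 libraries (log axis), for all 15548 tested genes (grey) and the 27 tested histone genes, coloured by type and filled where called higher. The 11 called members are the 11 with the highest mean CPM, and the 16 open symbols lie at 1.90 CPM or less.

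The 11 members called at 6 h were the 11 with the highest mean level, from 4.70 to 50.9 CPM over the 6 libraries. The 16 tested members that were not called had means of 0.259 to 1.90 CPM, and the 9 that were not tested had 0.0859 to 0.445 CPM. As a description, the median log2 change of the 27 tested members was 0.85 at 6 h, beside -0.0050 over all tested genes, and 0.41 at 2 h, beside -0.0049. Without the 4 members that passed the filter through the WNK463 libraries alone, the medians of the other 23 were 0.83 at 6 h and 0.38 at 2 h.

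H2B forms a dimer with H2A, and each nucleosome holds a pair of these dimers. The H2B genes were the largest type in the set, with 13 members of which 12 were tested. Of these, 5 were called higher at 6 h (H2BC12, H2BC21, H2BC5, H2BC15 and H2BC11) and 3 at 2 h (H2BC12, H2BC21 and H2BC11). Calls by type, here and below, stand beside 18.0% of all tested genes called higher at 6 h and 8.68% at 2 h. The summed level of H2B genes was 130.0 ± 0.368 CPM at 6 h, against 62.6 ± 2.68 CPM in DMSO (SD, n = 2 each), a ratio of 2.08. H2BC12 contributed the larger share of the DMSO sum, and without it the ratio was 2.46.

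H2BC21, which encodes an H2B protein from the cluster on chromosome 1, had 6.09 and 7.65 CPM in DMSO, 13.2 and 13.3 CPM at 2 h, and 26.8 and 28.2 CPM at 6 h. The 3 groups did not overlap, and the 2 libraries of each group were within 2 CPM of each other. Its log2 change was 0.94 ± 0.167 at 2 h over DMSO (SE; edgeR adjusted p = 3.50e-05) and 1.99 ± 0.162 at 6 h over DMSO (adjusted p = 6.16e-14). It was also called higher at 6 h than at 2 h, by 1.05 (edgeR adjusted p = 4.42e-07). The gene spans chr1:149884459-149886652 on the minus strand of hg38.

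H2BC12 had 35.3 and 34.4 CPM in DMSO, 54.0 and 57.9 CPM at 2 h, and 61.4 and 62.4 CPM at 6 h. Both WNK463 groups lay far above DMSO, with a smaller step between 2 h and 6 h. The log2 change was 0.68 ± 0.1001 at 2 h over DMSO (edgeR adjusted p = 1.11e-06) and 0.83 ± 0.09997 at 6 h over DMSO (adjusted p = 3.57e-09), whereas 6 h over 2 h gave 0.14 and was not called (adjusted p = 0.308). Per kilobase of exonic length it was also the highest member, at 125 CPM per kb at 6 h, against 70.5 CPM per kb in DMSO. Of its 50-base words 25.9% occur in no other gene, and 61.4% are shared with H2BC12L, a near-identical gene that had at most 3 counts in any library, so the split of counts between these genes is uncertain.

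H2BC11 had 1.61 and 2.36 CPM in DMSO, 4.65 and 5.12 CPM at 2 h, and 5.31 and 9.16 CPM at 6 h. The groups did not overlap, but the 6 h libraries lay further apart than those of the other groups. Its log2 change was 1.29 ± 0.305 at 2 h (edgeR adjusted p = 0.00178) and 1.85 ± 0.301 at 6 h (adjusted p = 2.22e-06), each over DMSO. H2BC15 had 3.05 and 4.11 CPM in DMSO, 4.32 and 5.21 CPM at 2 h, and 10.5 and 9.97 CPM at 6 h. Its 6 h libraries stood well above all others, with a log2 change of 1.505 ± 0.241 over DMSO (edgeR adjusted p = 1.70e-06) and 1.09 over 2 h (adjusted p = 0.000308). Its exons share 10.1% of their length with H2AC15 and H2AC16, and fragments from shared stretches were not counted for any of them.

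H2BC5 had 7.87 and 8.32 CPM in DMSO, 11.4 and 10.8 CPM at 2 h, and 14.9 and 12.2 CPM at 6 h. The groups did not overlap, and its log2 change of 0.74 ± 0.182 at 6 h over DMSO was called (edgeR adjusted p = 0.000998), while 0.45 at 2 h was not (adjusted p = 0.0817). The 7 H2B members tested and not called at 6 h had log2 changes between 0.09 (H2BC9) and 2.15 (H2BC17). H2BC17, at 0.259 CPM on average, had 0.721 and 0 CPM at 6 h, against 0.0554 and 0.0945 CPM in DMSO, and its libraries overlapped. H2BC6 and H2BC18 had their highest levels at 2 h, at 1.97 and 1.67 CPM for H2BC6 and 1.26 and 1.71 CPM for H2BC18, and neither was called in any comparison. H2BC6 was called higher at 2 h over DMSO where the filter was a mean of at least 1 CPM, and without the second DMSO library. Of the exons of H2BC6, 28.2% of the length is shared with other genes.

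**Figure D2:**
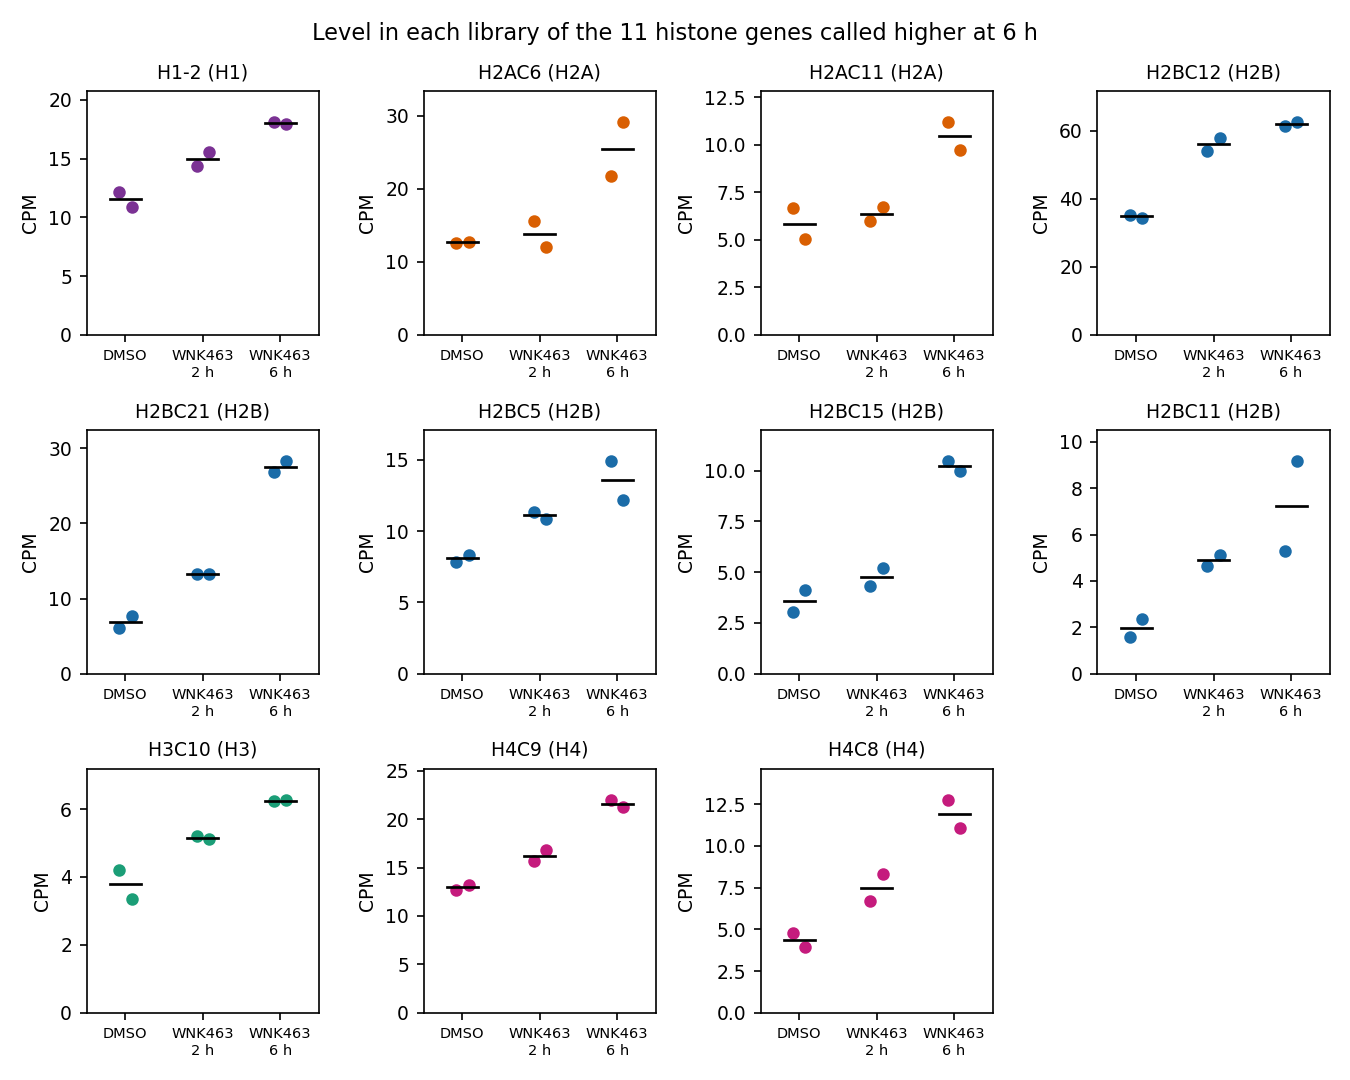
CPM (vertical axes, from 0) in each of the 6 libraries for the 11 histone genes called higher at 6 h than in DMSO; points are libraries, bars are group means and colours are histone types. In every panel both 6 h libraries lie above both DMSO libraries; H2AC6 and H2AC11 overlap between 2 h and DMSO.

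H2A, the partner of H2B, had 7 members, of which 5 were tested and 2 were called higher at 6 h (H2AC6 and H2AC11). None was called at 2 h (a count of 0 of 5). With so few genes tested, that is near the 8.68% of all tested genes called higher at 2 h. The summed level of the H2A genes was 39.7 ± 4.75 CPM at 6 h, against 21.4 ± 1.47 CPM in DMSO (SD, n = 2 each), a ratio of 1.85. At 2 h the sum was 23.0 ± 3.23 CPM, a ratio of 1.07 to DMSO, and its libraries overlapped those of DMSO.

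H2AC6 had 12.6 and 12.8 CPM in DMSO, 15.5 and 12.04 CPM at 2 h, and 21.8 and 29.1 CPM at 6 h. The 2 h libraries lay on either side of DMSO, and only the 6 h libraries stood apart from both other groups. The log2 change was 1.01 ± 0.158 at 6 h over DMSO (edgeR adjusted p = 1.12e-06) and 0.89 at 6 h over 2 h (adjusted p = 1.71e-05). H2AC11 had 6.65 and 5.06 CPM in DMSO, 6.01 and 6.75 CPM at 2 h, and 11.2 and 9.72 CPM at 6 h. It showed the same order, with a log2 change of 0.84 ± 0.215 at 6 h over DMSO (edgeR adjusted p = 0.00158) and 0.71 at 6 h over 2 h (adjusted p = 0.0104, a call lost without the first 2 h or the first 6 h library). For 2 h over DMSO the changes were 0.12 for H2AC6 and 0.13 for H2AC11, neither called.

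Of the other tested H2A genes, H2AC20 was the only tested member of the whole set with a negative log2 change at 6 h (-0.59 ± 0.878, edgeR adjusted p = 0.646), at 0.155 and 0.814 CPM at 6 h, against 1.11 and 0.378 CPM in DMSO. Its groups overlapped. H2AC13 had 1.49 and 2.44 CPM at 6 h, against 0.665 and 1.28 CPM in DMSO, and was not called (edgeR adjusted p = 0.1999). It shares 62.3% of its 50-base words with H2AC14, so counts of that pair are uncertain. H2AC8 had 1.29 and 0.763 CPM at 6 h, against 0.886 and 0.283 CPM in DMSO, with overlapping groups.

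H4 pairs with H3 at the centre of the nucleosome, and its 8 members included 6 that were tested. H4C9 and H4C8 were called higher at 6 h, and H4C8 alone of the H4 genes was called at 2 h. Among all tested genes 18.0% were called higher at 6 h and 8.68% at 2 h. The summed H4 level was 38.4 ± 0.818 CPM at 6 h, against 19.95 ± 0.219 CPM in DMSO (SD, n = 2 each), a ratio of 1.93. The sum at 2 h was 27.7 ± 2.31 CPM, a ratio of 1.39.

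H4C8 had 4.76 and 3.97 CPM in DMSO, 6.67 and 8.33 CPM at 2 h, and 12.7 and 11.1 CPM at 6 h. The 3 groups did not overlap. The log2 change was 1.45 ± 0.217 at 6 h over DMSO (edgeR adjusted p = 4.58e-07) and 0.79 ± 0.221 at 2 h over DMSO (adjusted p = 0.00892). The call at 2 h was lost without the second DMSO library (edgeR adjusted p = 0.0639) and without the second 2 h library (adjusted p = 0.154). H4C9 had 12.7 and 13.2 CPM in DMSO, 15.7 and 16.8 CPM at 2 h, and 21.9 and 21.3 CPM at 6 h, again with no overlap. Its log2 change was 0.74 ± 0.148 at 6 h over DMSO (edgeR adjusted p = 7.77e-05) and 0.33 at 2 h (adjusted p = 0.136).

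H4C16, the single member on chromosome 12, had 1.55 and 3.41 CPM at 6 h, against 1.44 and 1.23 CPM in DMSO, and its log2 change of 0.89 ± 0.474 was not called (edgeR adjusted p = 0.141). H4C14 had 0.361 and 1.83 CPM at 6 h, against 0.332 and 0.661 CPM in DMSO. None of its 50-base words is unique (0%), since H4C15 holds them all. H4C12 has none that is unique either (0%), and H4C11 shares 81.2% of its words with it, so these H4 counts are uncertain.

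H3 had 5 members, of which H3C10 and H3C2 were tested. H3C10, whose product is a replication-coupled H3, had 4.21 and 3.35 CPM in DMSO, 5.19 and 5.12 CPM at 2 h, and 6.23 and 6.26 CPM at 6 h. The groups did not overlap, and the log2 change at 6 h over DMSO was 0.73 ± 0.260 (edgeR adjusted p = 0.0241). This was the highest adjusted p of the 11 calls. The call was lost with DESeq2 (adjusted p = 0.0516), without the second DMSO library (edgeR adjusted p = 0.156), and without the first or the second 6 h library (edgeR adjusted p = 0.0854 and 0.0878). H3C2 had 1.03 and 0.560 CPM at 6 h, against 0.111 and 0.567 CPM in DMSO, and was not called. H3C6, with 0.464 and 0.204 CPM at 6 h, against 0 and 0.236 CPM in DMSO, and H3C7, with 0.824 and 0.0509 CPM at 6 h, against 0 and 0.0472 CPM in DMSO, were too low to be tested. The summed H3 level was 8.02 ± 1.05 CPM at 6 h, against 4.26 ± 0.0816 CPM in DMSO (SD, n = 2 each), a ratio of 1.88. This sum takes in H3C7 and also H3C13, which had 0.206 and 0.204 CPM at 6 h, against 0 and 0 CPM in DMSO. With the tested H3C10 and H3C2 alone the ratio was 1.71.

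H1 binds the DNA between nucleosomes, and 3 of its genes were members. H1-2 had 12.2 and 10.9 CPM in DMSO, 14.4 and 15.6 CPM at 2 h, and 18.1 and 17.9 CPM at 6 h. Its groups did not overlap, and it was called at 6 h over DMSO with a log2 change of 0.64 ± 0.157 (edgeR adjusted p = 0.000947), but not at 2 h (0.38, adjusted p = 0.0917). H1-4 had 0.773 and 0.865 CPM at 6 h, against 0.499 and 0.236 CPM in DMSO, and was not called. H1-5, which was not tested, had 0.258 and 0.356 CPM at 6 h, against 0.388 and 0.236 CPM in DMSO. The summed H1 level was 19.1 ± 0.0116 CPM at 6 h, against 12.2 ± 1.23 CPM in DMSO (SD, n = 2 each), a ratio of 1.57.

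**Figure D3:**
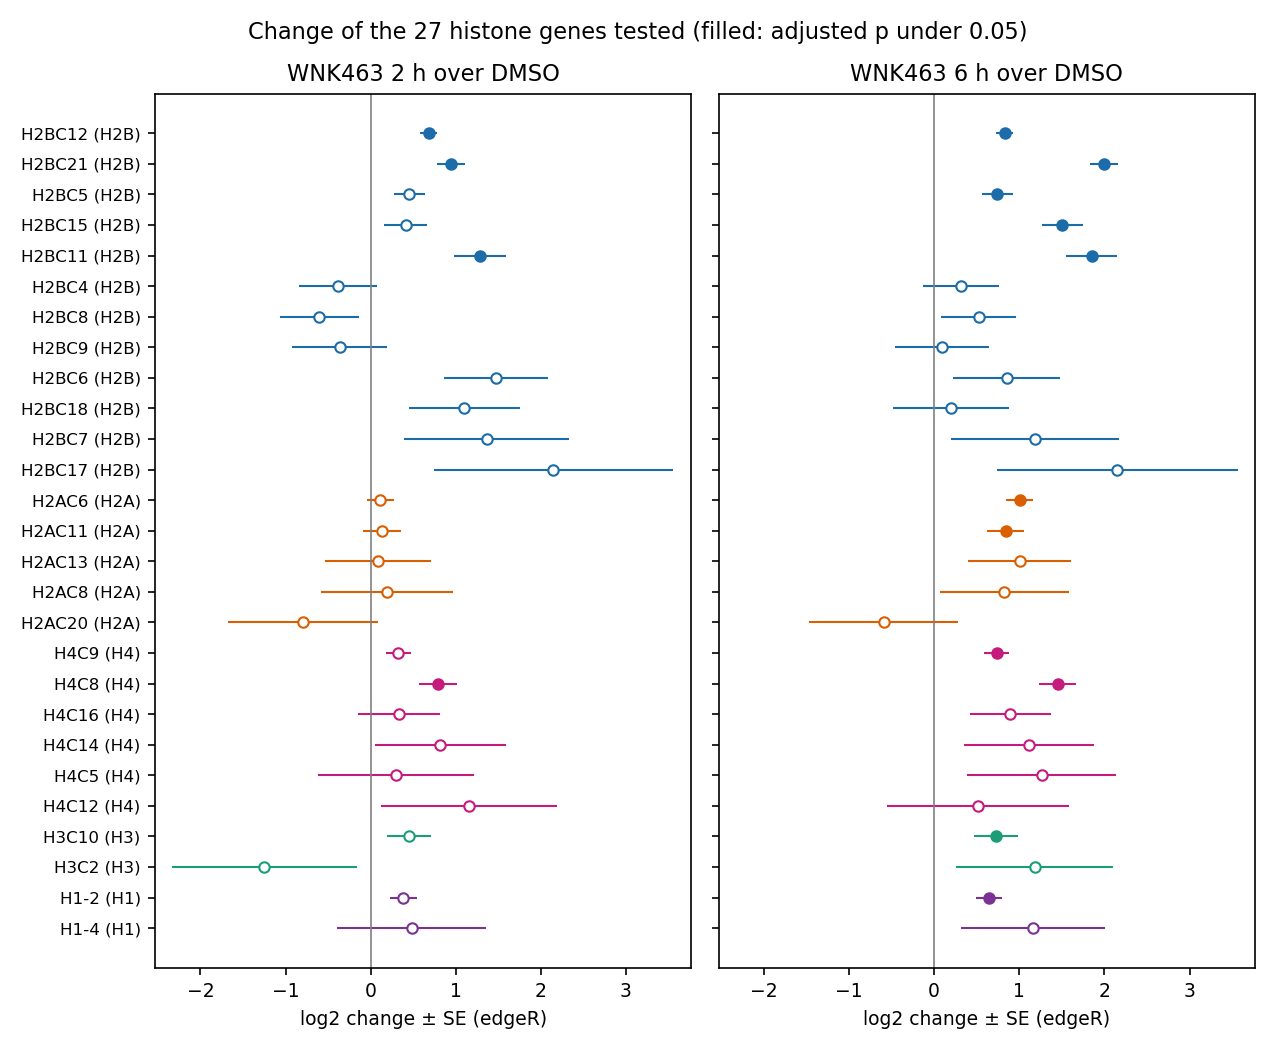
Log2 change with its SE (horizontal axes) of the 27 tested histone genes at 2 h over DMSO (left) and at 6 h over DMSO (right), ordered by type and, within a type, by level; filled points have an edgeR adjusted p under 0.05. There are 4 filled points at 2 h and 11 at 6 h, all above 0; H2AC20 is the only point below 0 at 6 h.

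Between the types, the ratio of summed levels at 6 h to DMSO ran from 1.57 for H1 to 2.08 for H2B. The differences between the types were not tested. With 2 libraries against 2, no permutation test of a sum could reach the threshold.

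Grouped by genome position, members less than 500 kb apart formed a cluster. On chromosome 6 the first cluster (chr6:26031589-26285638) held 16 members, the second (chr6:27125897-27146855) 4 and the third (chr6:27807444-27893891) 10. The cluster on chromosome 1 (chr1:149782689-149887411) held 5. In the second cluster on chromosome 6 all 4 members were called higher at 6 h (H2BC11, H2AC11, H4C9 and H2BC12), and 2 of them at 2 h. The first cluster had 4 called at 6 h of 13 tested (H2AC6, H1-2, H2BC5 and H4C8), the third 2 of 5 (H2BC15 and H3C10), and the chromosome 1 cluster 1 of 4 (H2BC21), all beside the 18.0% of all tested genes called higher.

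The summed level of the chromosome 1 cluster was 28.3 and 31.9 CPM at 6 h, against 8.25 and 9.35 CPM in DMSO, a ratio of 3.42. H2BC21 alone made up 26.8 and 28.2 CPM of it at 6 h, against 6.09 and 7.65 CPM in DMSO. The second cluster of chromosome 6 summed to 99.8 and 103 CPM at 6 h, against 56.3 and 55.1 CPM in DMSO, a ratio of 1.82. The first summed to 81.8 and 80.9 CPM at 6 h, against 45.0 and 43.9 CPM in DMSO, a ratio of 1.83. The third summed to 20.4 and 19.995 CPM at 6 h, against 9.75 and 10.6 CPM in DMSO, a ratio of 1.98. In each of these 4 clusters the 6 h libraries did not overlap those of DMSO or of 2 h.

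**Figure D4:**
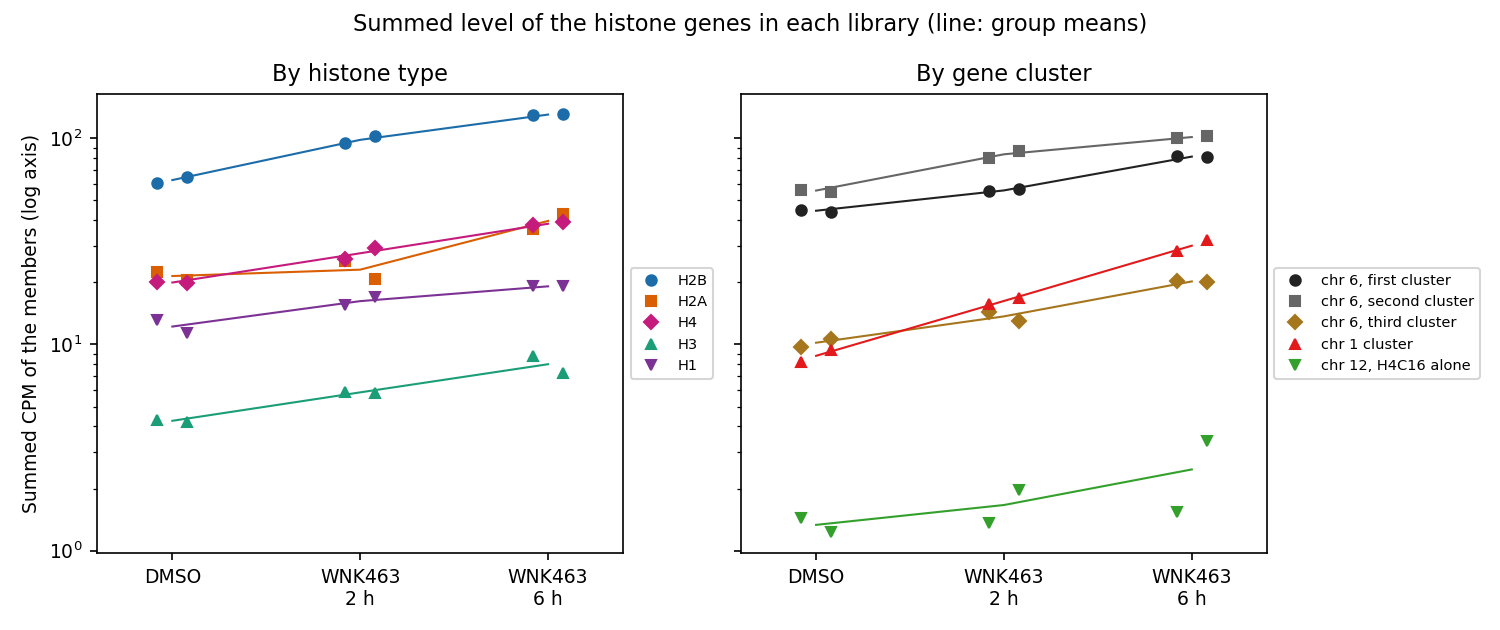
Summed CPM of the members (log axis) in each library, by histone type (left) and by gene cluster (right), with lines through the group means. All types and clusters are higher at 6 h than in DMSO in both libraries; the H2A libraries at 2 h overlap those of DMSO, and H4C16 on chromosome 12 stays under 3.5 CPM.

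There were 5 divergent pairs in which both genes were members, with 218 to 282 bases between the starts. H2BC11 and H2AC11, with starts 246 bases apart, were both called higher at 6 h, whereas at 2 h H2BC11 was called and H2AC11 was not. In the other pairs at most 1 gene was called at 6 h: H2BC21 but not H2AC20, and H2AC6 but not H2BC4, which had 2.99 and 1.73 CPM at 6 h, against 2.05 and 1.75 CPM in DMSO. Neither H2BC8 nor H2AC8 was called, nor H2AC13, and H2BC13 was not tested. H2BC8 had 1.88 and 1.75 CPM in DMSO, 1.09 and 1.28 CPM at 2 h, and 2.73 and 2.49 CPM at 6 h, so that its 2 h libraries lay below both other groups. The difference between the genes of a pair was not tested.

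Promoters were read from RefSeq for all 36 members (39 promoters, GRCh38.p14, 250 bases before to 50 bases after the start) and searched on both strands. The TATA motif TATAAA was in 69.2% of the members' promoters, beside 11.5% of 35116 promoters of all genes, and CCAAT was in 82.1%, beside 34.6%. The octamer ATTTGCAT, a site for POU factors such as POU2F1, was in 43.6%, beside 1.77%. It lay in 11 of 15 H2B and 6 of 7 H2A promoters. Of the 17 promoters of the H1, H3 and H4 genes, 0 held it. In all 6 H2A promoters it lay on the opposite strand. The windows of a divergent pair overlap, so the same site can be counted for both genes. The octamer of H2BC21, for example, is also the one found for H2AC20 at -197. Both promoters listed for H2BC12 count the same site as well. The motif AAACACA was in all 3 H1 promoters and in 1 of 7 H2A promoters, beside 5.64% of all promoters. The promoters of H2BC21 (chr1:149886633-149886932, minus strand) and H4C8 (chr6:26285485-26285784, minus strand) are printed because both genes were called at 2 h and at 6 h while their promoters differ in these motifs, which are in capitals.
H2BC21: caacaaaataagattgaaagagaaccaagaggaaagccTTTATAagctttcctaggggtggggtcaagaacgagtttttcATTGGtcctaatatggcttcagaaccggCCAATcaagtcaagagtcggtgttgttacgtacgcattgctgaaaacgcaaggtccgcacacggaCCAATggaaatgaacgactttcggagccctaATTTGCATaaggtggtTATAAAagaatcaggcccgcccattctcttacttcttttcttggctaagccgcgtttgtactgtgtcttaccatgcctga
H4C8: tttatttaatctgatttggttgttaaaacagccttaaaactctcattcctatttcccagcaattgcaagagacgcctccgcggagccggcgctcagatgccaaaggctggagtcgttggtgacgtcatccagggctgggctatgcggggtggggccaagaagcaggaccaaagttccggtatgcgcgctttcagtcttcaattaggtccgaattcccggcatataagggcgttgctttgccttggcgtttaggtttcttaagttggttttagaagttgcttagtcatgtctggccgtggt
The H2BC21 promoter holds the octamer with its first base at -46, TATAAA at -30, and CCAAT at -77 and -142, counted from the start site. Read on the opposite strand it holds CCAAT at -170 and TATAAA at -212, which appear as their reverse complements. The H4C8 promoter holds none of the 4 motifs in this window. Among the 8 H4 promoters TATAAA was in 4 and CCAAT in 1. A match is a description of the letters and shows no binding.

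Members also differ in how much exon the gene model gives them. Of the core histone members, 19 have over 800 exonic bases (834 to 5477), among which 18 were tested and 9 were called higher at 6 h. The 14 shorter ones (387 to 511 bases) had 7 tested and 1 called, which was H2BC12, near the 18.0% of all tested genes called higher. The mean was higher at 6 h than in DMSO in 19 of the 19 long members and in 9 of the 14 short ones, beside 49.5% of all genes with at least 10 counts. The short ones include the 4 members that met the limit of 10 counts through the WNK463 libraries (H2BC17, H3C7, H3C13 and H4C4). In 3 of these 4 the mean was higher at 6 h. The long members also had more counts to test, with a median level of 1.90 CPM against 0.295 CPM in the short ones, and per kilobase in DMSO the medians were 1.18 CPM per kb for the long and 0.689 CPM per kb for the short. The split at 800 bases was chosen with the values known, and the difference between long and short members was not tested.

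The replication-independent histone variants are, as a rule, made through the whole cell cycle from mRNAs with a poly(A) tail. They and the 3 lists after them are set beside the 18.0% of all tested genes called higher at 6 h, the 18.6% called lower and the median log2 change of -0.0050, and at 2 h beside the 8.68% called higher and the 8.32% called lower. Of 10 tested, 5 were called higher at 6 h than in DMSO and 0 lower, and the median log2 change of the 10 was 0.19. Those called included H3-3B, H2AZ2, H1-10 and CENPA. H3-3B, a gene for H3.3, had 374 and 367 CPM at 6 h, against 246 and 247 CPM in DMSO, with a log2 change of 0.59 ± 0.0605 (edgeR adjusted p = 6.14e-11). H2AZ2 rose by 0.24, H1-10 by 0.39, and CENPA, the centromeric H3, by 0.27. The call of H1-10 was lost without the second DMSO library (log2 change 0.18), and that of CENPA without the second DMSO library or either 6 h library (log2 change 0.19 to 0.29). H3-3A (0.13), H2AX (-0.04) and H2AZ1 (-0.11) were not called. Calls were gained by H3-3A without the first DMSO library (log2 change 0.15), and by H2AX (-0.16) and H2AZ1 (-0.16) without the second. At 2 h, 3 were called higher and 1 lower, CENPA by -0.33 with 45.8 and 46.7 CPM at 2 h, against 61.4 and 54.7 CPM in DMSO, a call lost without the first DMSO library or either 2 h library (log2 change -0.34 to -0.24).

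Among 48 genes for histone mRNA transcription, 3' end processing and decay, 17 were called lower at 6 h and 6 higher, with a median log2 change of -0.15. At 2 h, 5 were called lower and 1 higher. SLBP, which binds the stem-loop, had 102 and 107 CPM at 6 h, against 109.6 and 116 CPM in DMSO, and was not called (-0.10 ± 0.0772, edgeR adjusted p = 0.308). NPAT (0.01), LSM11 of the U7 snRNP (0.06) and CASP8AP2 (0.06) were not called either. Nor were the 3' exonuclease gene ERI1 (-0.15) and ZNF473 (-0.25), the last a U7 snRNP partner. ERI1 gained a call without the first DMSO library (log2 change -0.25). POU2F1, which encodes an octamer-binding factor, had 70.5 and 76.0 CPM at 6 h, against 119 and 123 CPM in DMSO, and fell by 0.72 on the log2 scale (edgeR adjusted p = 3.99e-10). SNRPD3, a shared Sm protein gene, fell by 0.78 and the cap-binding NCBP2 fell by 0.67, while the 5' exonuclease gene XRN1 rose by 0.54.

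Histone chaperones carry new histones to DNA. Of 28 tested, 6 were called higher at 6 h and 9 lower, with a median log2 change of -0.12. At 2 h the numbers were 2 higher and 5 lower. ASF1B, a chaperone of new H3 and H4, had 88.0 and 91.0 CPM at 6 h, against 62.9 and 58.4 CPM in DMSO, and rose by 0.56 (edgeR adjusted p = 9.76e-07). CHAF1A, the large subunit of the assembly factor CAF-1, had 55.0 and 54.8 CPM at 6 h, against 83.1 and 67.9 CPM in DMSO, and fell by 0.46 on the log2 scale (edgeR adjusted p = 0.000132). HJURP, which loads CENPA, rose by 0.61, TONSL fell by 0.63 and NPM1 fell by 0.49, while NASP (-0.06) and HAT1 (-0.19) were not called. HAT1 gained a call without the first DMSO library (log2 change -0.34).

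Among 35 S phase genes, 15 were called lower at 6 h and 5 higher, with a median log2 change of -0.105. At 2 h, 1 was called lower and 2 higher. MCM4 of the replicative helicase had 338 and 335 CPM at 6 h, against 553 and 537 CPM in DMSO, and fell by 0.70 on the log2 scale (edgeR adjusted p = 5.70e-14). GINS2 fell by 0.96 and MCM3 fell by 0.34, whereas RRM2, a subunit of ribonucleotide reductase, had 640.2 and 642 CPM at 6 h, against 458 and 484 CPM in DMSO, and rose by 0.44. PCNA (0.08), CCNE2 (0.04) and E2F1 (-0.10) were not called. The share of cells in S phase was not measured, and its part in the levels of the histone genes was not tested.

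**Figure D5:**
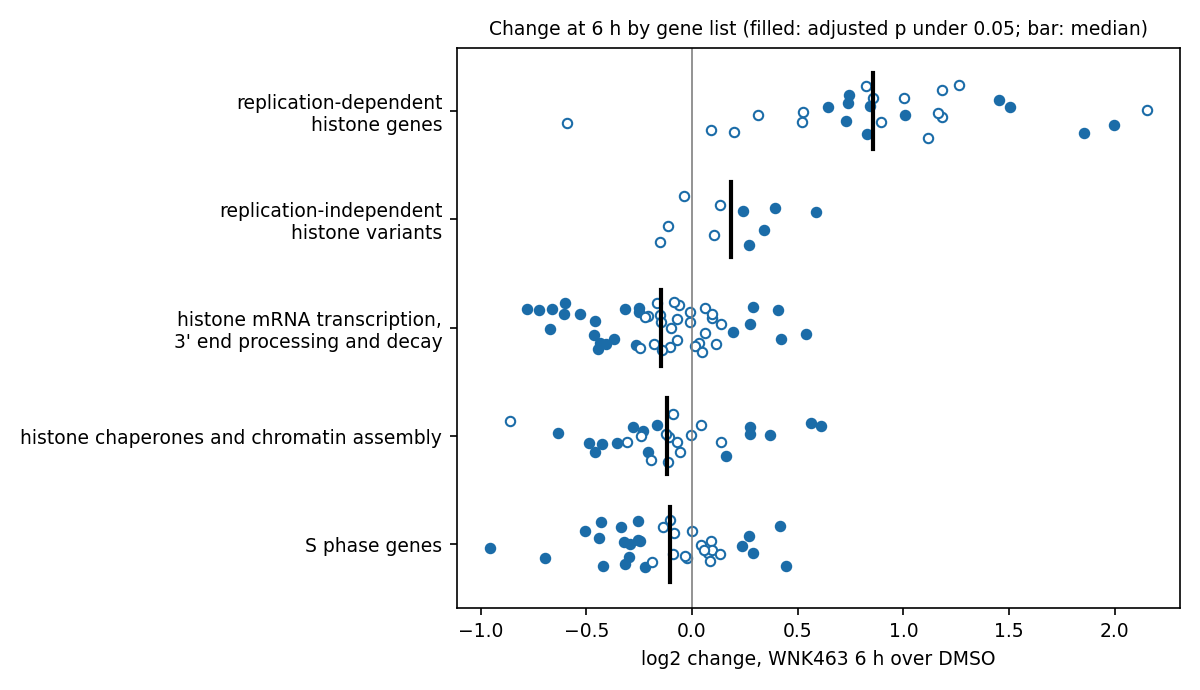
Log2 change at 6 h over DMSO (horizontal axis) of each tested gene in the replication-dependent histone set and in 4 related lists; filled points have an edgeR adjusted p under 0.05, bars are medians and the vertical position within a list is arbitrary. The median is 0.85 for the replication-dependent histone genes, 0.19 for the variants, and between -0.15 and -0.105 for the other 3 lists.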

How the data were processed

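Gene expression was measured by RNA-seq in 6 libraries of JJN3 cells. The deposited values are fragment counts per gene, made by the authors with featureCounts 2.0.0 on GENCODE 34, per the file headers, without regard to strand (a gene and an antisense partner cannot be told apart), from pairs with mapping quality of at least 20, and with multi-mapping and multi-gene pairs left out. Trimmomatic, STAR and the build hg38 were used per the submitters' processing notes (the sources used here give no tool versions). The ANK2 record ran over 3 lines and was joined again.

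Counts were fitted in R 4.3.3 with edgeR 4.0.16 (quasi-likelihood test, TMM, filterByExpr, 15548 genes tested, Benjamini-Hochberg adjustment), with a mean per group over all 6 libraries. CPM use TMM-scaled library sizes. The SE was derived from the test statistic. Each gene's spread drew mostly on the other genes (prior 42.8 against 3 residual degrees of freedom). The procedure was tested on simulated data. Alternatives were other scalings and filters, DESeq2 1.42.0, limma 3.58.1 voom, a replicate block and leaving out each library. The sums without H2BC12 were added after seeing the data. The 2 libraries of a group were not duplicates: a chi-square over genes, divided by its degrees of freedom, was 9.17 for DMSO, 4.22 for 2 h and 3.62 for 6 h. Stem-loops and 50-base words came from GENCODE 29 transcripts, promoters from RefSeq, and figures were drawn with matplotlib 3.10.9.

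Named genes were the 4 members of each type with the highest mean CPM, up to 8 called members per comparison and direction, a fixed set of histone-related genes and up to 4 called genes of each list. Others are named where a count of 5 or fewer, a grouping or a pair singles them out, which was done after their values were seen. The values of 1 listed gene are not reported here. The members and lists were chosen with earlier results of these data known. Precision is limited by depth: 3 counts are 0.125 to 0.167 CPM, a limit that covers counting error only.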

Additional observations from a re-analysis of the deposited data

How the results depend on the processing

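The number of members called higher stayed between 10 and 11 at 6 h, between 3 and 5 at 2 h and between 4 and 7 for 6 h over 2 h over 16 alternatives each, and none was called lower (0 in all). The replicate numbers did not pair the samples (correlations of -0.0054, -0.0381 and -0.0205), and with a replicate block the numbers of members called higher were 11 at 6 h, 4 at 2 h and 6 for 6 h over 2 h. Over all genes, leaving out 1 replicate gave 1527 (without the second 2 h library) to 2911 calls at 2 h (2642 with all libraries) and 2288 to 4661 calls for 6 h over 2 h (3772 with all, 2288 and 2372 without the first or the second 6 h library). The calls for 6 h over 2 h of H4C9, H4C8 and H2AC11 were each lost without the first 2 h or the first 6 h library, and that of H4C9 also without the second of either group and with no filter beyond 1 count. Summed levels moved by more than the replicate spread, itself a rough value from 2 libraries per group, in 8 of 48 comparisons. With library size alone the ratio of 6 h to DMSO was 2.00 for all members, 1.97 for H4 and 1.87 for the first chromosome 6 cluster. With only members that pass the filter it was 2.21 for the third chromosome 6 cluster, and the 2 h ratio of H3 was 1.29. Without H2BC12 the ratios were 2.03 at 6 h and 1.34 at 2 h for all members and 2.46 at 6 h for H2B. Leaving out 1 library reversed the sign of some changes that were not called. At 2 h the log2 change of H2AC11 then ranged from -0.047 to 0.34 and that of H2AC6 from -0.071 to 0.29. At 6 h the ranges were -0.47 to 1.86 for H4C14, -0.16 to 0.088 for H2AX, -0.087 to 0.22 for LSM11, -0.0059 to 0.13 for CASP8AP2, -0.069 to 0.105 for NPAT, -0.097 to 0.21 for CCNE2 and -0.089 to 0.395 for CDAN1. The cause of these shifts was not tested. Of the alternatives for genes named by the rule, 51 at 2 h, 16 at 6 h and 9 for 6 h over 2 h lost a call with the direction kept, and 8 at 6 h and 1 for 6 h over 2 h gained one. Where a group was left with 1 library, that library was assumed to vary like the other groups. No scaling moved the median of all genes by over 0.1 (log2). Depth limits the members under 2 CPM, whose log2 changes at 6 h had SEs of 0.44 to 1.42, against 0.09997 to 0.301 for the 11 called.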
